A study of Mus musculus with 9 samples.

Results

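The genes described here are the ligands and receptors of the classical axon guidance systems, measured in embryonic mouse retina. They were chosen by symbol as the class 3 to 7 semaphorins, plexins, neuropilins, Slit and Robo genes, netrins, Dcc and Unc5 genes, Eph receptors and ephrins. In all, 47 of the 12388 gene symbols measured in the series belong to this set, and 44 of them are listed in both deposited tables. Of the 47 genes, 22 encode ligands and 25 encode receptors. By family there are 13 semaphorins, 9 plexins and neuropilins, 4 Slit and Robo genes, 5 genes for netrin 4, Dcc and Unc5 receptors, 10 Eph receptors and 6 ephrins. The annotation holds 69 genes whose symbols fit the same naming pattern, and the 22 without a row, among them Ntn1, Ephb1, Plxna4, Sema3d, Robo3 and Slit3, are not analysed here.

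Retinal ganglion cells are the neurons whose axons leave the eye, and growth cones steer by ligands that attract or repel them through receptors on their surface. Netrins act through Dcc, mostly in attraction, and through Unc5 receptors in repulsion, and Dcc guides ganglion cell axons out of the eye at the optic disc. Slits act through Robo receptors, semaphorins through plexins with neuropilins as co-receptors for the class 3 members, and ephrins through Eph receptors. In the visual system Slit and Robo genes keep ganglion cell axons on course within the retina and at the optic chiasm, and ephrins and Eph receptors order the axons in the brain.

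The study compared 3 groups of 3 CD-1 mouse retina samples at E12.5, when the first ganglion cells are forming. The groups differ at Neurog2, a proneural bHLH transcription factor gene. The KI group had GFP at one Neurog2 allele and a knocked-in coding sequence at its second allele, the MUT group carried GFP at both alleles (Neurog2GFP/GFP), and the HET group carried GFP at one allele with the other intact (Neurog2GFP/+). All groups therefore carry GFP at Neurog2, and no group without it was used. RNA came from GFP+ optic cups collected in pairs and separated into cells with TrypLE Select, so other cells of the optic cup and cells adhering to it can be present.

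The deposited tables hold one RPKM value per transcript and group (read density per transcript length and per mapped reads), one table for MUT against HET and one for KI against MUT. They give no value per sample, so replicate spread cannot be shown and the sequencing depth is unknown. What stands for the error is the Cuffdiff test of each transcript in the authors' deposited tables. A gene is called here if any of its transcripts had q of 0.05 or less there. Each sample's title carries a number of its own, but no label states whether that number marks an embryo or a litter, so this test measures only the spread of the 3 samples per group, which may be technical. Gene levels below are RPKM summed over the listed transcripts, and a summed value has no test of its own. The lowest value of a row's higher group is 0.906 RPKM in MUT against HET and 1.04 RPKM in KI against MUT, so weaker transcripts have no row, and 3 members appear in one table only.

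The targeted gene does not separate the groups as their labels would: Neurog2 was at 36.2 RPKM in the MUT group and 30.2 RPKM in the HET group (p = 0.081, q = 0.993 in the authors' deposited Cuffdiff table), and at 112 RPKM in the KI group and 35.5 RPKM in the MUT group (q = 0.0104). This value covers coding and untranslated sequence together, so the groups are called MUT-labelled and KI-labelled from here on. The Y-linked gene Eif2s3y was listed at 0 in the MUT-labelled group, against 21.9 RPKM in the HET group and 28.6 RPKM in the KI-labelled group. The embryos' sexes therefore differed between groups. In both comparisons sex and the MUT label cannot be told apart for any gene, and the part of sex in the values was not tested. Among the members Efnb1 and Plxna3 are X-linked. The titles of the KI-labelled samples carry another running number than those of the other groups, and if it marks a litter or batch, that and the KI label cannot be told apart. The retinal label fits the progenitor markers, all 13 of which were listed, with a summed level of 3283 RPKM in MUT-labelled and 2752 RPKM in HET retinas. Where the same MUT-labelled samples were quantified in both tables, the 16 members with a single transcript had 1.019 to 1.022 times the value in the first table that they had in the second, so levels can be read across tables within that margin for these genes. Sums over several transcripts can differ more, as for Plxnd1, with 4.62 and 3.57 RPKM in the same MUT-labelled samples.

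**Figure D1:**
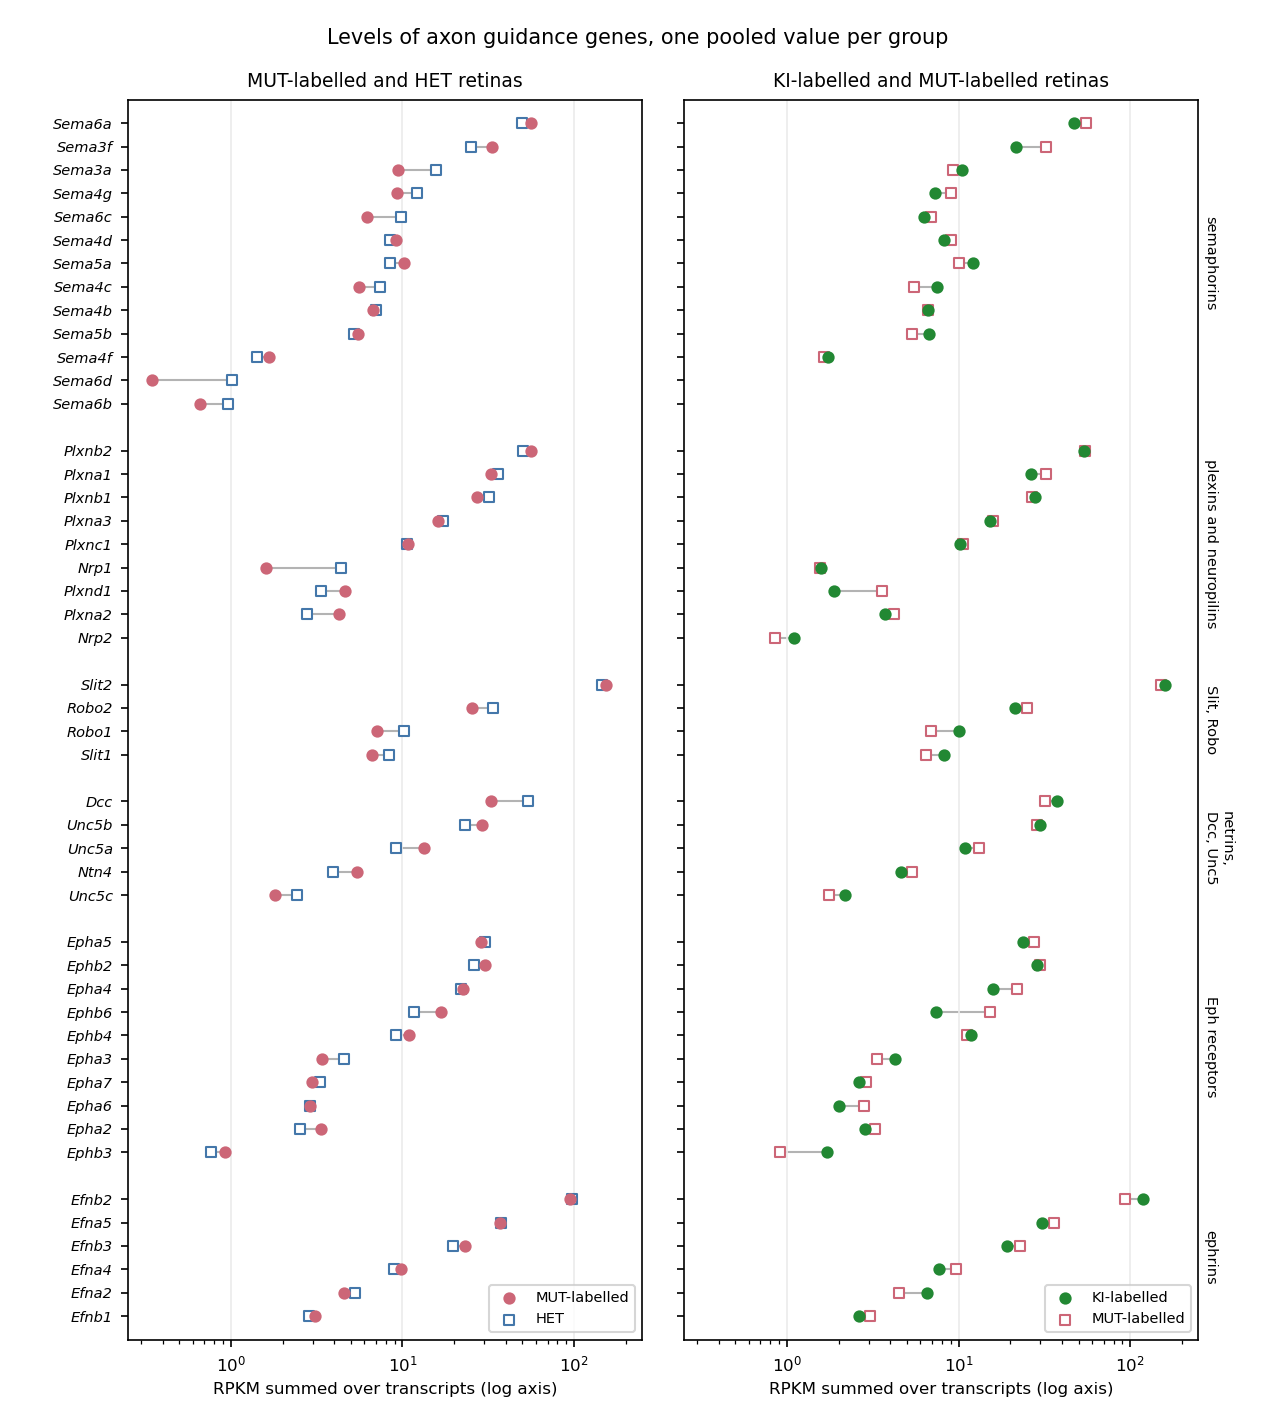
Summed RPKM (log axis) of every member, by family, with MUT-labelled and HET retinas in the left panel and KI-labelled and MUT-labelled retinas in the right panel; each mark is one pooled value per group. Levels span from 0.347 RPKM for Sema6d to 160 RPKM for Slit2, and the pairs of marks mostly lie close together, with Sema6d and Nrp1 farthest apart on the left and Ephb6, Plxnd1 and Ephb3 on the right.

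The highest levels in the set were those of the ligands Slit2 and Efnb2. By median, receptors had the higher level in HET retinas, with 10.4 RPKM against 8.44 RPKM for ligands. Slit2, a secreted ligand of Robo receptors, had the highest level, with 154 RPKM in MUT-labelled and 145 RPKM in HET retinas. In the other comparison it had 160 RPKM in KI-labelled and 151 RPKM in MUT-labelled retinas. Slit2 was followed by Efnb2, a transmembrane ligand of EphB receptors that is made in the dorsal retina. Efnb2 had 94.9 RPKM in MUT-labelled and 97.5 RPKM in HET retinas, and in the other comparison 119 RPKM in KI-labelled and 93.1 RPKM in MUT-labelled retinas. The receptor with the highest level in HET retinas was Dcc at 53.8 RPKM. Plxnb2, a receptor of class 4 semaphorins, came next in HET retinas at 50.4 RPKM, and Sema6a, a transmembrane semaphorin, had 49.7 RPKM. With one value per group, the order of such close neighbours was not tested. At the low end, Ephb3 was at 0.923 RPKM in MUT-labelled and 0.768 RPKM in HET retinas, and Sema6d at 0.347 and 1.02 RPKM.

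In MUT-labelled against HET retinas, 3 of the 46 listed members had a called transcript, 2 lower and 1 higher. All 3 are receptors: Dcc and Nrp1 fell and Plxna2 rose. None of the 22 ligands was called, with 3 of them at an unadjusted p under 0.05 in the same table. Of all 12247 genes in that table, 1.34% were called, 1.09% lower and 0.245% higher, against 6.52% of the members. The members were chosen with earlier results of these data known, so this share is a description. At an unadjusted p under 0.05 stood 13 of the 112 member transcripts (11.6%, against 5.18% of all transcripts), 9 lower and 4 higher. By gene, 11 of the 46 listed members had such a transcript, against 10.9% of all genes. The members as a whole were not shifted: 23 had lower and 23 higher summed RPKM, and their median log2 ratio was 0.006, against 0.03 over all genes. Summed RPKM was lower for 45.4% of all genes. A difference beyond 0.5 on the log2 scale was found for 10 of the 46 members, against 13.4% of all genes.

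**Figure D2:**
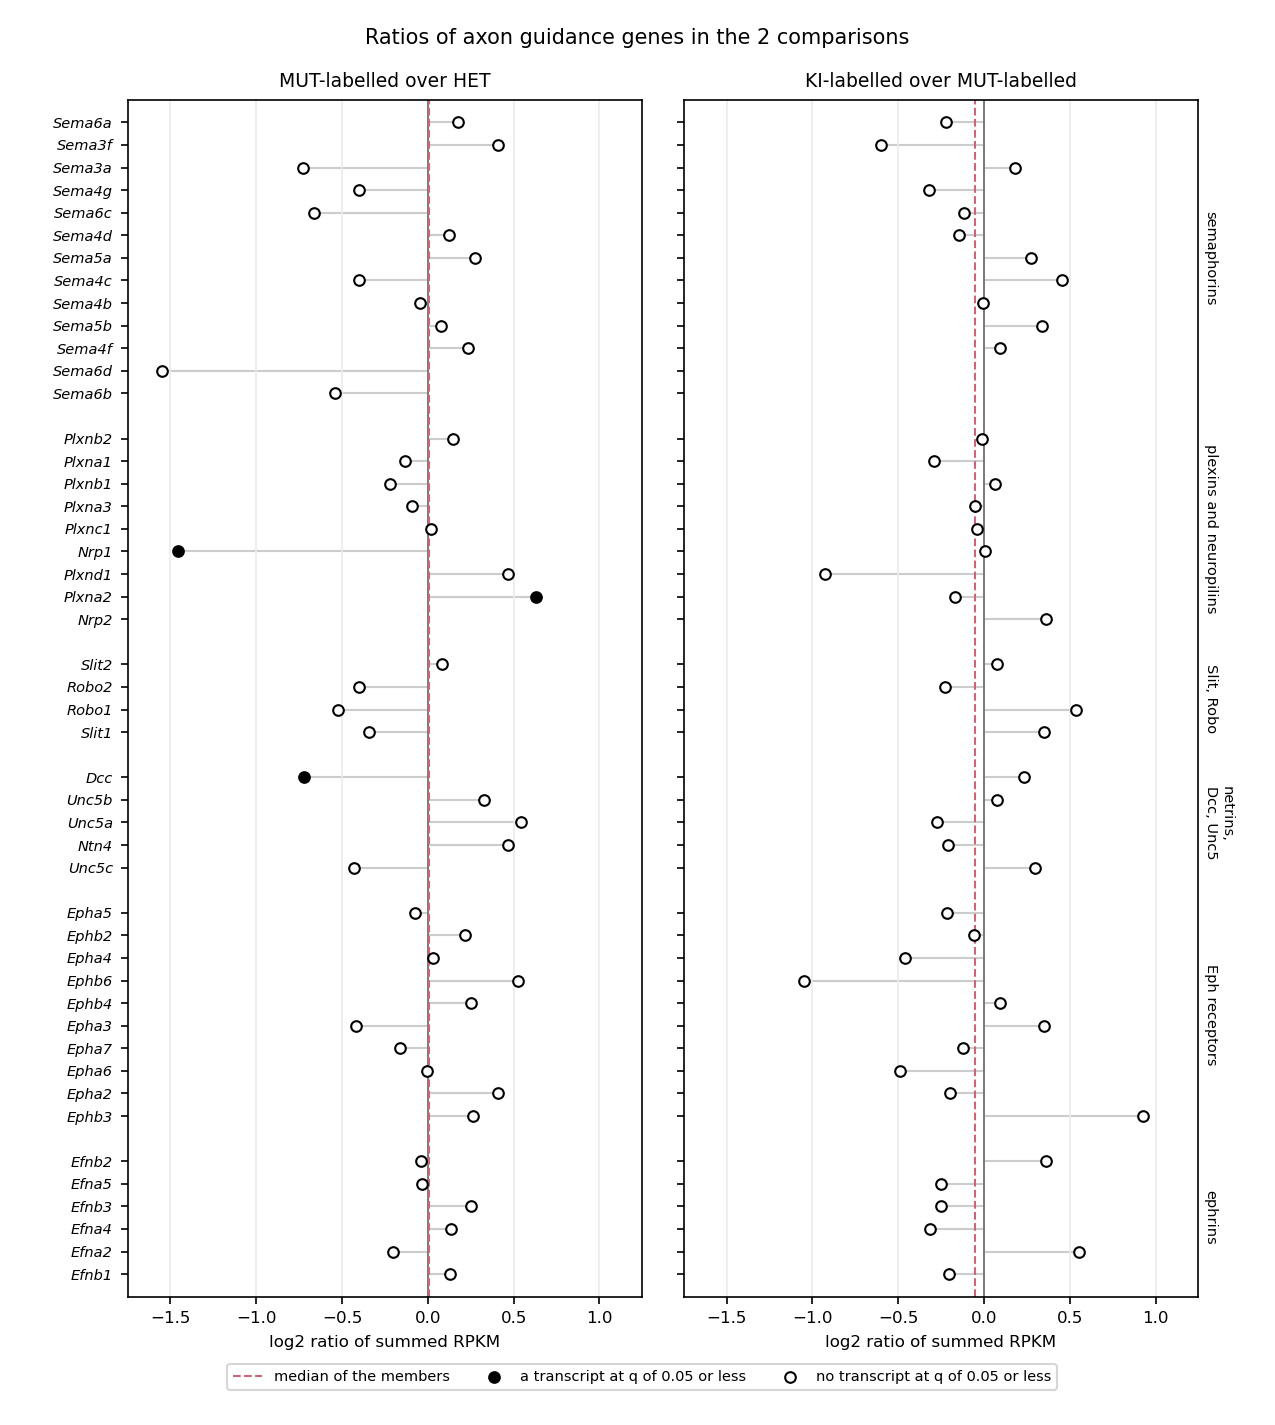
Log2 ratio of summed RPKM for every listed member, MUT-labelled over HET on the left and KI-labelled over MUT-labelled on the right; filled points have a transcript at q of 0.05 or less in the authors' deposited table, and the dashed line is the median of the members. Only Dcc, Nrp1 and Plxna2 are filled, all on the left, and both medians lie close to 0.

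Dcc, the netrin receptor that mediates attraction, was at 32.6 RPKM in MUT-labelled and 53.8 RPKM in HET retinas. It fell by 0.72 on the log2 scale, to 0.606 of the HET level (Cuffdiff q = 0.0109 in the authors' deposited table, the lowest q that table holds). Its single assembled transcript covers chromosome 18, 71258738 to 72351069, on the minus strand of mm10. The Unc5 receptors, which mediate repulsion by netrins, did not pass the test. Unc5b had 29.0 RPKM in MUT-labelled and 23.1 RPKM in HET retinas, and Unc5a had 13.4 and 9.19 RPKM (log2 ratio 0.54, lowest Cuffdiff q = 0.242 in the authors' deposited table). Reads of Unc5a share an assembled locus with Hk3 in this table, so its value is uncertain. Unc5c, a further repulsive netrin receptor, was at 1.80 RPKM in MUT-labelled and 2.42 RPKM in HET retinas. Ntn4, a netrin of basement membranes, was the one netrin gene listed, with 5.46 RPKM in MUT-labelled and 3.94 RPKM in HET retinas, at a locus shared with Gm8580.

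A transcript without a symbol lies beyond the 3′ end of the assembled Dcc transcript. It covers chromosome 18, 71253632 to 71254432, which is 801 bases in the MUT against HET table, and 742 bases from the same start in the KI against MUT table. In the GENCODE annotation of this build, 799 of the 801 bases fall inside the 3′ untranslated region of Dcc, in exon 29, which runs from 71253634 to 71258992 (5359 bases). A gap of 4305 bases separates it from the assembled Dcc locus, which itself holds 255 bases of that untranslated region. This transcript had 47.4 RPKM in MUT-labelled and 123 RPKM in HET retinas and fell by 1.38 on the log2 scale (Cuffdiff q = 0.0109 in the authors' deposited table). In the other table it had 156 RPKM in KI-labelled and 51.6 RPKM in MUT-labelled retinas, a 3.03-fold rise (log2 ratio 1.60, Cuffdiff q = 0.0104 in the authors' deposited table). Dcc itself had 37.7 RPKM in KI-labelled and 32.0 RPKM in MUT-labelled retinas (log2 ratio 0.23, q = 0.783 there), which did not pass the test. The ratio of the symbol-less transcript to Dcc was 1.45 in MUT-labelled and 2.29 in HET retinas, and 4.15 in KI-labelled and 1.61 in MUT-labelled retinas. The difference between the transcript's change and that of Dcc was not tested, and the sources used here do not give the strand of the reads.

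**Figure D3:**
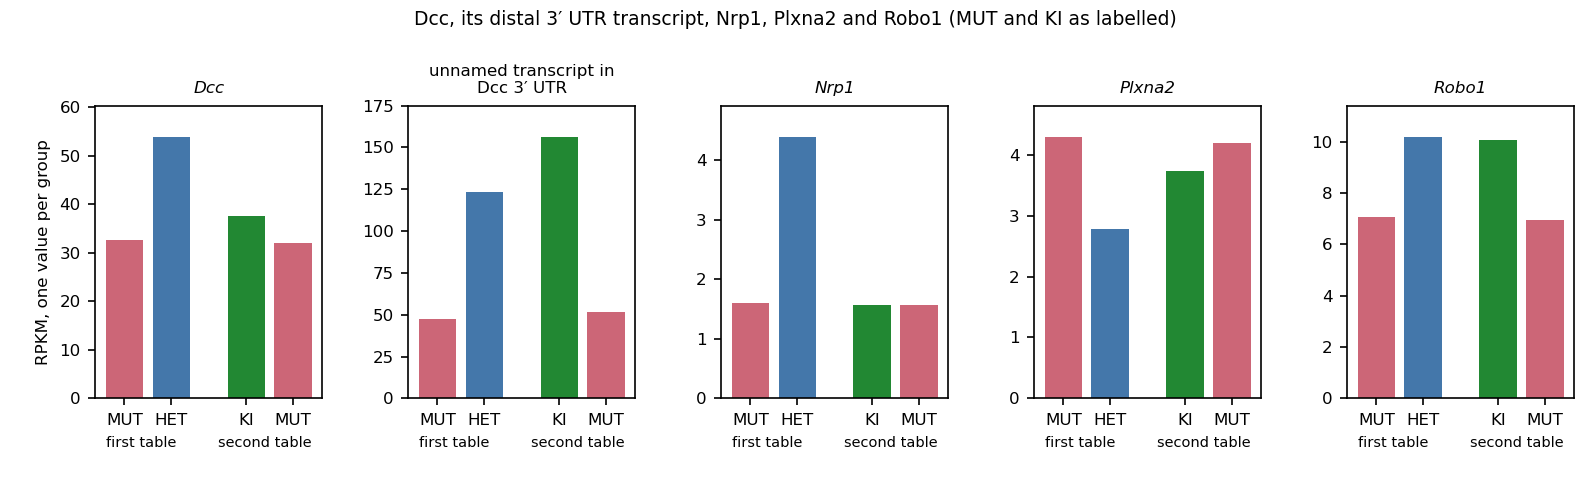
RPKM (linear axes from 0, one pooled value per group) of Dcc, the symbol-less transcript in its annotated 3′ untranslated region, Nrp1, Plxna2 and Robo1, with the first table holding MUT-labelled and HET retinas and the second holding KI-labelled and MUT-labelled retinas. The symbol-less transcript is highest in the KI-labelled group at 156 RPKM, while Nrp1 is near 1.6 RPKM in both KI-labelled and MUT-labelled retinas.

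The assembled loci of Nrp1 and Plxna2, which were called, and of Robo1, which came nearest to the threshold without passing it, are shown by the 250 bases before their RefSeq start sites (build GRCm38.p6, plus strand). The window of Dcc is not shown here. Neurog2 belongs to the bHLH factors, which bind E-boxes, so each window was searched for CANNTG, a motif that reads the same on both strands, and matches are in capitals. The windows are chr8:128358823-128359072 for Nrp1, chr1:194619579-194619828 for Plxna2 and chr16:72662899-72663148 for Robo1. The Plxna2 window lies inside the assembled locus, which starts at 194618218, and inside an exon of an annotated noncoding transcript of the same gene. The Nrp1 and Robo1 windows end just before their assembled loci. Both still lie inside the spans that GENCODE annotates for these genes, which start at 128358604 for Nrp1 and 72308306 for Robo1.
Nrp1: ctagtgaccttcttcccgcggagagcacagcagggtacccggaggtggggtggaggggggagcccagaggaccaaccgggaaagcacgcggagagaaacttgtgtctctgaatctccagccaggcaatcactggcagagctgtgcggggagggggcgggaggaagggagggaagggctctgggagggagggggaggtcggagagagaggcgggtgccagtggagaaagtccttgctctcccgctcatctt
Plxna2: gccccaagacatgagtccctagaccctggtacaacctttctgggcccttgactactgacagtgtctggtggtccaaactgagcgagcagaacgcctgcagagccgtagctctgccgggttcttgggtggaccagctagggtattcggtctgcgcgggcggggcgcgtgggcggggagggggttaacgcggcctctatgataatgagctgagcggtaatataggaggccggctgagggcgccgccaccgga
Robo1: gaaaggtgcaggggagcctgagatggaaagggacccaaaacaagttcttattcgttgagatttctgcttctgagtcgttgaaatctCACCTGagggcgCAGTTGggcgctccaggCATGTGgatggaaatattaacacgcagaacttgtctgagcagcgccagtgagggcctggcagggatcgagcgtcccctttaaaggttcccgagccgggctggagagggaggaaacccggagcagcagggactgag
The Nrp1 and Plxna2 windows held no match. The Robo1 window held 3, CACCTG at 164, CAGTTG at 152 and CATGTG at 135 bases before the start. Over all 32851 RefSeq promoter windows of this length, 66.2% held a CANNTG, and of the 52 windows found for 41 members, 22 did (42.3%). The letters CAGATG or CATCTG were in 14.4% of all windows and in 1 of the 52 member windows (1.92%), and CAGCTG was in 13.0% of all windows and in 6 of the 52 (11.5%). These matches describe the sequence and say nothing of binding.

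Nrp1 encodes neuropilin 1, the co-receptor for class 3 semaphorins and a receptor for VEGF, and it is known on chiasm-crossing retinal axons and on endothelium. Its assembled locus is on chromosome 8, 128359073 to 128505462. It was at 1.60 RPKM in MUT-labelled and 4.39 RPKM in HET retinas and fell by 1.46 on the log2 scale, the largest change among the members called in that table (Cuffdiff q = 0.0109 in the authors' deposited table). Plxna2, a signalling receptor for semaphorins (chromosome 1, 194618218 to 194816869), was at 4.29 RPKM in MUT-labelled and 2.77 RPKM in HET retinas and rose by 0.63 (q = 0.0109 in the same deposited table). Both are among the members of the family with low levels. The plexins with the highest levels did not pass the test: Plxnb2 had 55.8 RPKM in MUT-labelled and 50.4 RPKM in HET retinas. Plxna1, a receptor for class 3 semaphorins and for Sema6d, had 32.8 RPKM in MUT-labelled and 35.9 RPKM in HET retinas. Plxnb1, which binds Sema4d, had 27.3 RPKM in MUT-labelled and 31.9 RPKM in HET retinas. Plxnd1, a receptor of Sema3e known in vessels, had 4.62 and 3.34 RPKM in MUT-labelled and HET retinas. Plxna3 and Plxnc1 had log2 ratios of -0.09 and 0.02.

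None of the 13 listed semaphorins was called in MUT-labelled against HET retinas, and their median log2 ratio was -0.04. Sema3a, a secreted repellent that acts through Nrp1 and A-type plexins, was at 9.44 RPKM in MUT-labelled and 15.6 RPKM in HET retinas (log2 ratio -0.73, lowest Cuffdiff q = 0.431 in the authors' deposited table). Sema3f, which acts through Nrp2, was at 33.1 RPKM in MUT-labelled and 25.0 RPKM in HET retinas. The transmembrane ligand Sema6a had 56.2 RPKM in MUT-labelled and 49.7 RPKM in HET retinas, and Sema6c had 6.20 and 9.81 RPKM (log2 ratio -0.66). Sema6d and Sema6b lay close to the listing limit and were in this table only, with 0.347 RPKM in MUT-labelled and 1.02 RPKM in HET retinas for Sema6d and 0.665 and 0.968 RPKM for Sema6b. Sema5a, which with Sema5b confines neurites in the developing inner retina, had 10.2 RPKM in MUT-labelled and 8.41 RPKM in HET retinas. The others, Sema4b, Sema4c, Sema4d, Sema4f, Sema4g and Sema5b, had log2 ratios between -0.40 (Sema4c) and 0.23 (Sema4f).

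The Slit and Robo genes had a median log2 ratio of -0.37 in MUT-labelled against HET retinas, with 3 of 4 lower in summed RPKM and none called. Robo1, a Slit receptor (chromosome 16, 72663149 to 73046095), came nearest, with 7.08 RPKM in MUT-labelled and 10.2 RPKM in HET retinas (log2 ratio -0.53, p = 0.0004, Cuffdiff q = 0.0614 in the authors' deposited table). At a q of 0.1 or less it would be the one member added to the calls, where 1.69% of all genes are called. Robo2, the main Robo receptor of retinal ganglion cell axons, had 25.5 and 33.7 RPKM (lowest q = 0.385 in the same deposited table). Of its 4 transcripts, 3 had less RPKM in MUT-labelled than in HET retinas. Slit1 was at 6.61 RPKM in MUT-labelled and 8.37 RPKM in HET retinas. Slit2 was at 154 and 145 RPKM.

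No Eph receptor and no ephrin was called in MUT-labelled against HET retinas. The 10 Eph receptors had a median log2 ratio of 0.12 and the 6 ephrins one of 0.05. Epha5, an EphA receptor of retinal axons in topographic mapping, had 28.7 RPKM in MUT-labelled and 30.2 RPKM in HET retinas, and Epha4 had 22.5 and 22.0 RPKM. Ephb2, a receptor of ventral retinal axons, had 30.4 and 26.2 RPKM. Ephb6, an Eph receptor without kinase activity, had 16.8 and 11.6 RPKM (log2 ratio 0.53, lowest Cuffdiff q = 0.993 in the authors' deposited table). Epha2, Epha3, Epha6, Epha7, Ephb3 and Ephb4 had log2 ratios from -0.42 (Epha3) to 0.41 (Epha2). Among the ligands, the GPI-anchored Efna5 had 36.9 RPKM in MUT-labelled and 37.7 RPKM in HET retinas, and the transmembrane Efnb2 had 94.9 and 97.5 RPKM. Efnb3 was at 23.3 RPKM in MUT-labelled and 19.6 RPKM in HET retinas. Efna2, Efna4 and Efnb1 had log2 ratios of -0.21, 0.14 and 0.13, and Efna4 shares its assembled locus with Adam15.

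Neuronal markers moved in the same comparison. Of the 18 listed markers of ganglion cells and neurons, 16 were measured, all 16 had less summed RPKM in MUT-labelled retinas, 10 were called lower, and their summed level was 685 RPKM in MUT-labelled and 1301 RPKM in HET retinas (median log2 ratio -1.04). The 13 progenitor markers had a median of 0.26 and none was called. In whole retinas, fewer cells of a type and less RNA per cell cannot be told apart, and the part of the neuronal share in the values of Dcc, Nrp1 and Robo1 was not tested. Pigment epithelium markers summed to 61.1 RPKM in MUT-labelled and 72.9 RPKM in HET retinas, but 3 of the 5 measured were higher in MUT-labelled retinas, and the median over the 5 was 0.49 on the log2 scale. Their sum was set mainly by Otx2 (43.6 RPKM in MUT-labelled and 56.9 RPKM in HET retinas), while Pmel had 5.83 and 3.30 RPKM; all 5 had a transcript below an unadjusted Cuffdiff p of 0.05 and none was called. In the same comparison lens and surface ectoderm markers summed to 62.7 RPKM in MUT-labelled and 86.9 RPKM in HET retinas (median log2 ratio -0.35), and blood and macrophage markers to 39.6 and 42.0 RPKM (median -0.61). Mesenchyme and endothelium markers summed to 48.1 RPKM in MUT-labelled and 42.7 RPKM in HET retinas, and immediate early and stress genes to 192 and 172 RPKM, with 1 of 10 called lower. No marker of the other 4 lists was called. Among the endothelial markers Kdr, the VEGF receptor, was at 20.7 RPKM in MUT-labelled and 16.8 RPKM in HET retinas, while Pecam1, Cdh5, Tek, Tie1 and Emcn had no row.

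In KI-labelled against MUT-labelled retinas, none of the 45 listed members was called in the authors' deposited Cuffdiff table, where 1.67% of all 11989 genes were, 0.634% lower and 1.03% higher. Of the members 8 had a transcript at an unadjusted p under 0.05, against 14.6% of all genes, and by transcript 8 of 111 did (7.21%, against 7% of all transcripts). Of these transcripts 3 were lower and 5 higher. In summed RPKM, 26 members were lower and 19 higher, and 50.3% of all genes were lower. The median log2 ratio was -0.05 over the members and -0.002 over all genes, and 6 members were beyond 0.5 on the log2 scale, against 16.3% of all genes. Both tables draw on the MUT-labelled samples, so the comparisons are not independent of each other, and values are set side by side without a test between them.

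Robo1 came closest to the threshold here as well, with 10.1 RPKM in KI-labelled and 6.94 RPKM in MUT-labelled retinas (log2 ratio 0.54, p = 0.0004, Cuffdiff q = 0.0506 in the authors' deposited table). At a q of 0.1 or less, which 2.54% of all genes pass in this table, it would be called. Its call also depends on the set of transcripts over which p-values are adjusted: counting only transcripts with at least 1 RPKM in both groups gave q = 0.0458, and only those with at least 3 RPKM in the higher group gave q = 0.0386. Slit1 had 8.26 RPKM in KI-labelled and 6.48 RPKM in MUT-labelled retinas (lowest q = 0.247 in the deposited table), where one transcript had 2.31 and 0.827 RPKM. Slit2 was at 160 and 151 RPKM and Robo2 at 21.4 and 25.0 RPKM in KI-labelled and MUT-labelled retinas.

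Nrp1 and Plxna2, the other members called in the first comparison, differed little here. Nrp1 was at 1.571 RPKM in KI-labelled and 1.567 RPKM in MUT-labelled retinas (log2 ratio 0.004, p = 0.99, Cuffdiff q = 0.996 in the authors' deposited table), and Plxna2 at 3.74 and 4.20 RPKM (log2 ratio -0.17, q = 0.783 there). Nrp2, the co-receptor of Sema3f, was listed in this table only, with 1.09 RPKM in KI-labelled and 0.854 RPKM in MUT-labelled retinas. Plxnb2 had 54.1 and 54.4 RPKM, Plxna1 26.3 and 32.2 RPKM, and Plxnb1 28.0 and 26.8 RPKM in KI-labelled and MUT-labelled retinas. Plxnd1 had 1.88 RPKM in KI-labelled and 3.57 RPKM in MUT-labelled retinas (log2 ratio -0.93, lowest q = 0.784 in the deposited table). That difference was carried by one of its 2 transcripts, with 0.118 RPKM in KI-labelled and 1.54 RPKM in MUT-labelled retinas. Plxna3 and Plxnc1 had log2 ratios of -0.05 and -0.04.

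Of the netrin receptors, Unc5b was at 30.0 RPKM in KI-labelled and 28.5 RPKM in MUT-labelled retinas, Unc5a at 10.9 and 13.1 RPKM, and Unc5c at 2.17 and 1.77 RPKM. Ntn4 had 4.62 RPKM in KI-labelled and 5.35 RPKM in MUT-labelled retinas. None of these passed the test, and the family had a median log2 ratio of 0.08. Among the semaphorins, Sema3f had 21.5 RPKM in KI-labelled and 32.5 RPKM in MUT-labelled retinas (log2 ratio -0.60, lowest Cuffdiff q = 0.783 in the authors' deposited table), and Sema3a had 10.5 and 9.26 RPKM. Sema6a was at 47.3 and 55.2 RPKM, Sema6c at 6.32 and 6.87 RPKM and Sema5a at 12.1 and 10.0 RPKM in KI-labelled and MUT-labelled retinas. The remaining class 4 and 5 semaphorins had log2 ratios between -0.32 (Sema4g) and 0.46 (Sema4c).

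The summed difference of largest size in this comparison was that of Ephb6, and it did not pass the test. Ephb6 was at 7.37 RPKM in KI-labelled and 15.2 RPKM in MUT-labelled retinas (log2 ratio -1.05, lowest Cuffdiff q = 0.783 in the authors' deposited table), with one of its 2 transcripts at 6.35 and 14.0 RPKM. Ephb3 was at 1.72 RPKM in KI-labelled and 0.906 RPKM in MUT-labelled retinas (log2 ratio 0.92, Cuffdiff q = 0.783 in the authors' deposited table). Epha5 had 23.6 and 27.5 RPKM, Ephb2 28.7 and 29.8 RPKM, and Epha4 16.0 and 21.9 RPKM in KI-labelled and MUT-labelled retinas. Epha2, Epha3, Epha6, Epha7 and Ephb4 lay between -0.49 (Epha6) and 0.35 (Epha3) on the log2 scale. Efna2, an ephrin that takes part in retinal mapping, was at 6.58 RPKM in KI-labelled and 4.49 RPKM in MUT-labelled retinas (log2 ratio 0.55, Cuffdiff p = 0.0082 and q = 0.321 in the authors' deposited table). Efnb2 had 119 and 93.1 RPKM, Efna5 30.4 and 36.2 RPKM and Efnb3 19.2 and 22.8 RPKM in KI-labelled and MUT-labelled retinas. Efnb1 had 2.64 RPKM in KI-labelled and 3.04 RPKM in MUT-labelled retinas, and Efna4 had 7.73 and 9.62 RPKM.

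Markers of several cell types, and immediate early and stress genes, moved in this comparison too. All 16 measured neuronal markers had more summed RPKM in KI-labelled retinas, 924 RPKM in total against 672 RPKM in MUT-labelled retinas, with 2 called. Of the 13 progenitor markers 7 had less summed RPKM (median log2 ratio -0.07) and 1 was called lower, the Notch target Hes5, with 21.3 RPKM in KI-labelled and 42.3 RPKM in MUT-labelled retinas. Pigment epithelium markers summed to 143 RPKM in KI-labelled and 62.0 RPKM in MUT-labelled retinas (median log2 ratio 2.69), with 6 of 10 called higher. Lens and surface ectoderm markers summed to 182 and 63.6 RPKM (median 1.09), with 4 of 14 called higher, and blood and macrophage markers to 135 and 39.8 RPKM (median 2.03), with 2 of 8 called higher. Mesenchyme and endothelium markers summed to 57.4 RPKM in KI-labelled and 48.8 RPKM in MUT-labelled retinas, with 2 of 8 called higher. That list's median log2 ratio was 1.11. Kdr (16.2 RPKM in KI-labelled and 20.3 RPKM in MUT-labelled retinas) and Egfl7, listed as endothelial markers, were lower. The other endothelial markers, Pecam1, Cdh5, Tek, Tie1 and Emcn, had no row, so the share of endothelium cannot be read from Kdr and Egfl7. The mesenchymal Lum had 4.06 RPKM in KI-labelled and 1.22 RPKM in MUT-labelled retinas. Immediate early and stress genes summed to 49.4 RPKM in KI-labelled and 188 RPKM in MUT-labelled retinas, all 10 were lower, and 7 were called. Among defining markers, Foxe3 of the lens was listed at 0 in MUT-labelled and at 1.05 RPKM in KI-labelled retinas and was called higher. Rpe65 had no row. The part of these cell types in the members' values was not tested.

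Single transcripts of a member often differed more than their sum. Several transcripts were listed for 27 members in each comparison, up to 6 in MUT against HET and up to 7 in KI against MUT. A transcript beyond a 2-fold ratio was found in 14 of these genes in MUT-labelled against HET retinas, and the summed level of all 14 stayed within 2-fold. In KI-labelled against MUT-labelled retinas there were 18 such genes, 17 of them within 2-fold when summed. Transcripts beyond 2-fold in opposite directions were found in 2 and 5 genes. In Sema6a, one transcript had 21.1 RPKM in MUT-labelled and 8.17 RPKM in HET retinas (p = 0.0213, Cuffdiff q = 0.694 in the authors' deposited table) while another had 8.12 and 18.3 RPKM. The 2 transcripts of Efnb2 had 68.0 RPKM in KI-labelled and 31.6 RPKM in MUT-labelled retinas and 51.3 and 61.5 RPKM. Efna5 had a transcript listed at 0 in KI-labelled and at 8.75 RPKM in MUT-labelled retinas, while its main transcript had 27.2 and 27.4 RPKM. None of these transcripts passed the test. Dcc, Nrp1, Plxna2 and Robo1 each had a single transcript in both tables.

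**Figure D4:**
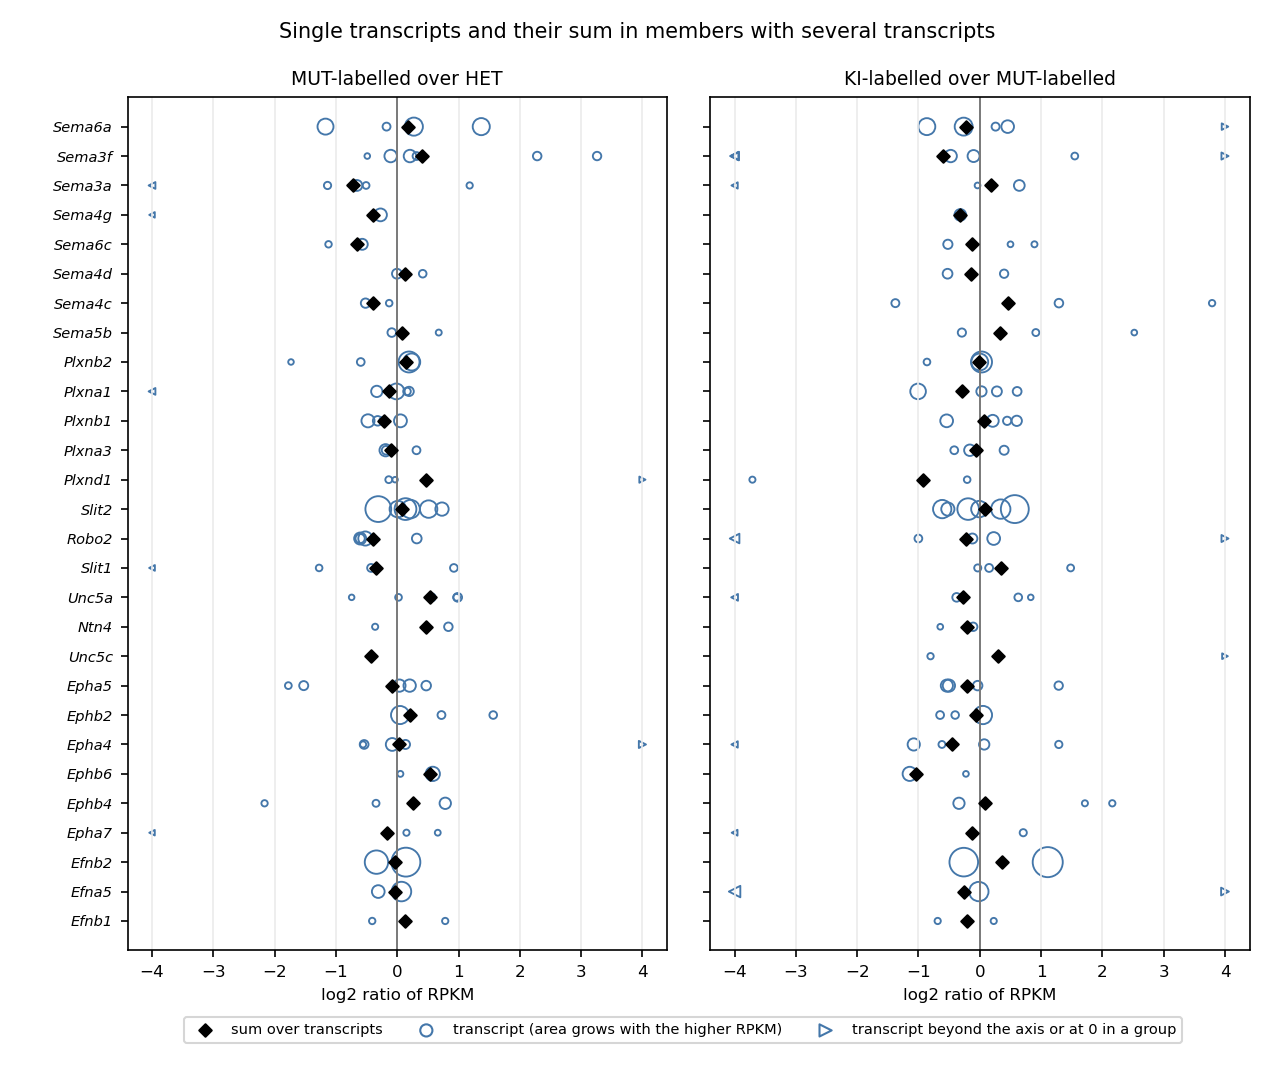
Log2 ratio of single transcripts (circles, area growing with the higher RPKM; triangles at the edge lie beyond the axis or at 0 in a group) and of their sum (diamonds) for members with several transcripts, MUT-labelled over HET on the left and KI-labelled over MUT-labelled on the right. The diamonds gather near 0 while the circles spread on both sides, as in Sema6a and Efnb2.

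Genes that act beside these ligands and receptors were taken from a list of 74 partners (adhesion molecules, co-receptors and cytoplasmic effectors), of which 65 were listed in MUT against HET. In MUT-labelled against HET retinas 7 of them were called, 6 lower and 1 higher (10.8%, against 1.34% of all genes), and the median log2 ratio was -0.20. The called genes are membrane or growth cone proteins. The cell adhesion genes L1cam, Nfasc and Cntn2, which act in axon growth and bundling, fell. L1cam was at 5.76 RPKM in MUT-labelled and 15.8 RPKM in HET retinas, Nfasc at 7.94 and 19.1 RPKM, and Cntn2 at 9.87 and 22.9 RPKM. The MUT-labelled sum of Cntn2 was 13.9 RPKM in the KI against MUT comparison, with 5 of its transcripts listed in place of 4. Dscam, an adhesion molecule that has been described as a netrin receptor, fell to 1.23 RPKM in MUT-labelled retinas, against 2.42 RPKM in HET retinas. Rgmb, a ligand of the Dcc relative neogenin, fell to 3.92 RPKM, against 7.19 RPKM. Gap43, a growth cone protein that is also in the list of neuronal markers, had 47.3 RPKM in MUT-labelled and 92.7 RPKM in HET retinas. Flrt2, a ligand of Unc5 receptors, rose, with 53.2 RPKM in MUT-labelled and 28.1 RPKM in HET retinas (log2 ratio 0.92). Each of these 7 calls had Cuffdiff q = 0.0109 in the authors' deposited table.

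In KI-labelled against MUT-labelled retinas 2 of the 62 listed partners were called, both lower (3.23%, against 1.67% of all genes called and 0.634% called lower), and the median log2 ratio was 0.04. Flrt2 was at 35.1 RPKM in KI-labelled and 52.2 RPKM in MUT-labelled retinas, and its called transcript at 11.3 and 28.2 RPKM (Cuffdiff q = 0.0413 in the authors' deposited table). In the first table the called Flrt2 transcript was at 24.5 RPKM in MUT-labelled and 14.5 RPKM in HET retinas. Srgap3, a GTPase-activating protein that acts downstream of Robo receptors, had a called transcript at 24.8 RPKM in KI-labelled and 44.4 RPKM in MUT-labelled retinas (q = 0.0104 in the deposited table), while its summed level was 55.3 and 59.1 RPKM. The partners with the highest levels, the cytoskeletal regulators Cfl1, Rac1, Rhoa and Cdc42, were not called in either table. Cfl1, for example, had 341 RPKM in MUT-labelled and 393 RPKM in HET retinas, and 382 RPKM in KI-labelled and 334 RPKM in MUT-labelled retinas.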

How the data were processed

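RNA-seq of mouse retina (9 samples, 3 per group) was analysed from the 2 tables the authors deposited, one per comparison. The tools named per the submitters' processing notes are Bowtie2, Cufflinks and Cuffdiff, with mm10 as the build and versions not given in the sources used here. Per the file headers, each row holds one RPKM per group, a test statistic (a score, not used here) and the authors' deposited p-value and q-value. The deposited q-values equalled a Benjamini-Hochberg adjustment over the whole table to within 5.26e-07.

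From these values, RPKM was summed per gene symbol and log2 ratios were computed without a pseudocount, with Python 3.11.15, pandas 2.3.3, numpy 2.4.6 and scipy 1.17.1. The 57 and 55 rows with a date as symbol and the 116 and 117 without a symbol stayed out of gene values. Starts in the files count from 0 (18608 of 26278 matched annotated starts after adding 1) and are printed from 1. Overlaps used GENCODE M21, and promoter windows came from RefSeq. Depth per sample is unknown. The code of the gene-level adjustment used as an alternative was tested on simulated p-values, drawn independently for each transcript. This tested the code and not the calls made from the deposited p-values.

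Members named are those called, the 3 highest per family in HET, those beyond 0.5 log2 with at least 1 RPKM in a group, known retinal pairs, and of the partners the called and the 4 highest; the others are named with their ratios or as the end of a range, or because they were listed in one table only. Members and lists were chosen with earlier results of these data known. Some items are not reported here.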

Additional observations from a re-analysis of the deposited data

How the results depend on the processing

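The calls of Dcc, Nrp1 and Plxna2 in MUT-labelled against HET retinas were kept under every alternative run (q of 0.1 or 0.02 or less, Simes per gene, and both filters on low values), with an adjusted q of 0.00658 (Simes), 0.00868 (at least 3 RPKM in the higher group) and 0.00954 (at least 1 RPKM in both groups) where it was recomputed from the authors' deposited Cuffdiff p-values. This was a weak check, because each has a single transcript at the smallest Cuffdiff p (5e-05) and lowest q (0.0109) of that comparison. A q of 0.1 or 0.02 or less had to keep them, and Simes leaves the p of a single transcript unchanged. The number of members called there was 3, and 4 with Robo1 at q of 0.1 or by Simes (adjusted q = 0.0292). In KI-labelled against MUT-labelled retinas the count of 0 became 1, which is Robo1, at q of 0.1 or less, by Simes (adjusted q = 0.0254), with at least 1 RPKM in both groups (0.0458) and with at least 3 RPKM in the higher group (0.0386); at q of 0.02 or less it was 0. Over these the q of Robo1 ran from 0.0254 to 0.0506 there and from 0.0292 to 0.0614 in MUT-labelled against HET retinas. At q of 0.1 or less, 2.54% of all genes were called in KI-labelled against MUT-labelled and 1.69% in MUT-labelled against HET retinas. The median log2 ratio of the members lay between -0.10 and -0.05 in KI-labelled against MUT-labelled and between -0.02 and 0.02 in MUT-labelled against HET retinas. Of 59 ratios of named members, taking the most abundant transcript in place of the sum moved 30 and changed the sign of 16, none of them called. Adding 1 RPKM moved 7, and these include 2 called members in MUT-labelled against HET retinas. The log2 ratio of Nrp1 went from -1.46 to -1.05 and that of Plxna2 from 0.63 to 0.49, with the sign kept. Adding 0.1 RPKM moved 1, and centring changed 1 sign. No paired analysis was possible because the tables hold one pooled value per group, and for the same reason no replicate could be left out. The depth is unknown, so how far it limits genes near 1 RPKM cannot be stated.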

Other observations

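Of the 116 and 117 transcripts without a symbol, 1 in each table lay within 5 kb of the annotated span of any member, and that is the one in the 3′ untranslated region of Dcc. Its level was 156 RPKM in KI-labelled retinas, 51.6 and 47.4 RPKM in MUT-labelled retinas in the 2 tables, and 123 RPKM in HET retinas.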
